A study of Bos taurus with 14 samples.

Results

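CCL20 and GRO1 are chemokine genes whose products draw leukocytes into inflamed tissue, and both were measured by 1 probe each on a custom Agilent bovine microarray. Their probes, ABR741 for CCL20 and ABR319 for GRO1 (which the array names CXCL1, GRO1 and MGSA), are 2 of 15208 probes and 2 of the 5944 genes that could be named. Both were selected on their measured signals and background calls in granulocytes, which differed between granulocytes given interferon tau (IFNT) and granulocytes given phosphate-buffered saline (PBS), so that contrast is described below for both genes without a test. The 14 arrays held Cy3-labelled RNA of 4 groups of Bos taurus cells: 4 arrays of granulocytes with IFNT, 4 of granulocytes with PBS, 3 of endometrial stromal cells (BES) with IFNT and 3 of BES with PBS. IFNT is the type I interferon by which the ruminant conceptus signals its presence to the mother, and every sample was incubated for 2 h. The stated IFNT dose is 1 mg/mL, a high one for an interferon, and the unit may be an error. The labels mark BES as an in vitro study and granulocytes as both in vivo and in vitro, and describe RNA extraction for granulocytes alone. Nothing in them tells whether a group's replicates are separate animals or separate cultures, so errors and p-values measure the spread between these samples, which may be technical.

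GRO1 belongs to the CXC chemokines with a glutamate-leucine-arginine (ELR) motif, which in humans bind the receptors CXCR1 and CXCR2 on neutrophils and call them to sites of infection. CCL20 is a CC chemokine that in humans and mice binds CCR6 on lymphocytes and dendritic cells. Genes of this kind are induced quickly when interleukin 1, tumour necrosis factor or bacterial products activate the transcription factor NF-kB, and their mRNAs are short-lived because proteins such as ZFP36 bind AU-rich elements in them.

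The ELR+ CXC genes resemble each other, so the probe sequences decide which transcripts a signal can come from. In RefSeq's bovine annotation of ARS-UCD2.0, the protein-coding genes beside GRO1 stand in the order CXCL8, LOC534181, CXCL5, PPBP, PF4, CXCL2, CXCL3 and GRO1. The 60-base probes of both members and of the nearest relatives of GRO1 are given 5′ to 3′ as the scanner files hold them, and the capitals mark the longest stretch that a probe shares with the GRO1 probe (in the GRO1 line, the stretch shared with CXCL3).
GRO1: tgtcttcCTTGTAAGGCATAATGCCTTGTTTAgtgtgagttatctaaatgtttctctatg
CXCL3: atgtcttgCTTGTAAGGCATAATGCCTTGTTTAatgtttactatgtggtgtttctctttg
CXCL2: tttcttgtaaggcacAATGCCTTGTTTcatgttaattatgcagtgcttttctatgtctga
CCL20: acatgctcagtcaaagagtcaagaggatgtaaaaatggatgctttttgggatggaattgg

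The GRO1 and CXCL3 probes shared an unbroken stretch of 25 bases, and 49 of 60 bases were identical in a local alignment. CXCL2 shared a stretch of 12 bases with the GRO1 probe and 44 of 56 aligned bases. Among the 15207 other probes, CXCL3 was the only one that shared 15 or more bases in a row with the GRO1 probe, and no probe did so with the CCL20 probe. The GRO1 and CXCL3 signals are therefore uncertain as separate measurements, and whether either probe also bound the other transcript was not tested.

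The labelled cell types were checked against marker lists. All 11 measured granulocyte markers were well above background (the scanner software's call that a spot exceeds its local background) on every granulocyte array, while CXCR1, CATHL1, CATHL4, MPO and FCGR3A were so on no BES array. Of the same 11, 5 were well above background on every BES array with IFNT and 6 on every BES array with PBS, at a summed level (linear, relative to the array's 75th percentile) of 0.837 to 0.989 on BES arrays, against 821 to 1029 on granulocyte arrays. All 10 measured stromal markers, collagens and DCN among them, were well above background on every BES array, and 4 of the 10 were so on every granulocyte array. Of 5 measured epithelial markers, 4 were also well above background on every BES array and EPCAM on none. On BES arrays the 5 epithelial markers summed to 207 to 235 and the 10 stromal markers to 156 to 170. These sums add different probes, so they cannot be compared as amounts of the cell types. On granulocyte arrays the epithelial markers summed to 3.94 to 5.79. The BES label therefore rests on the sample names, and whether epithelial cells were present was not tested. Interferon-stimulated genes rose with IFNT in both cell types by their count. In granulocytes 19 of 19 tested rose, where 17.2% of all tested probes rose. In BES 17 of 18 rose, where 2.29% of all tested probes did. Of these, OAS1X, OAS2 and GBP5 were well above background on no BES array with PBS. They passed the filter through their IFNT arrays alone, so their counted rises rest on PBS values at background. BES and granulocytes were hybridised on separate slides, 1 each, so cell type and slide cannot be told apart. On the granulocyte slide the IFNT arrays filled row 2 and the PBS arrays row 1, so array row and treatment cannot be told apart there. The software called 66.4% to 70.9% of probes well above background on granulocyte arrays and 71.6% to 76.1% on BES arrays, and arrays of 1 group correlated at 0.991 to 0.996 across probes, which are not independent replicates.

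GRO1 gave a bright signal in granulocytes, and the signal with IFNT was well under that with PBS. The processed signal, a background-corrected intensity, was 20922, 21373, 19793 and 19857 in granulocytes with IFNT. In granulocytes with PBS it was 48935, 63955, 57219 and 60947. Every IFNT array lay below every PBS array, as for 26.8% of the 10379 probes tested in granulocytes. The coefficient of variation of these unscaled signals was 3.84% over the IFNT arrays, against 11.3% over the PBS arrays. Whole arrays also varied in brightness: their 75th percentile was 1168 to 1295 with IFNT and 1009 to 1491 with PBS.

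On the level scale, log2 of the signal minus the 75th percentile of the array, GRO1 averaged 4.08 ± 0.034 in granulocytes with IFNT and 5.49 ± 0.11 in granulocytes with PBS (SD, n = 4 each). The difference was −1.41 ± 0.061 (SE), a 2.65-fold lower level that left 37.7% of the PBS level. The gap between the highest IFNT array and the lowest PBS array was 1.23. In bulk RNA, fewer cells that make the transcript and less transcript per cell cannot be told apart. Of 10334 probes that were well above background on at least 1 array of each group, 30 had a lower difference than GRO1. GRO1 was chosen on this contrast, so the choice favoured such a rank.

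The bright GRO1 spots were read in different ways on different arrays. The scanner software took the signal from a scan at lower gain and scaled it up on all 4 PBS arrays and on IFNT arrays 1 and 2, and no pixel was saturated on any array. IFNT arrays 3 and 4, read without that scaling, had levels of 4.07 and 4.09, against 4.12 and 4.05 on IFNT arrays 1 and 2. No PBS array was read without the scaling, so its part in the difference was not tested.

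Markers of some other cells also differed between the granulocyte groups. The 2 measured eosinophil markers, CCR3 and ALOX15, had a summed level of 10.6 to 12.1 with IFNT and 13.7 to 14.5 with PBS. The 7 measured monocyte and macrophage markers summed to 27.3 to 28.3 with IFNT and 29.0 to 31.3 with PBS, with 6 of 7 well above background on all IFNT arrays and 7 of 7 on all PBS arrays. The ranges overlapped for the 11 granulocyte markers (839 to 920 with IFNT, 821 to 1029 with PBS) and for the 10 T and NK cell markers (4.88 to 5.17 with IFNT, 4.96 to 5.14 with PBS), where CD4 was well above background on no array. They also overlapped for the 10 stromal markers (25.2 to 27.3 with IFNT, 25.1 to 26.9 with PBS) and the 5 epithelial markers (3.94 to 5.73 with IFNT, 4.23 to 5.79 with PBS). The 3 B cell markers were higher with IFNT (2.51 to 2.62) than with PBS (2.33 to 2.45), and the platelet marker ITGA2B overlapped (2.34 to 2.45 with IFNT, 2.34 to 2.57 with PBS). The part of these markers in the differences of GRO1 and CCL20 was not tested.

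In BES, GRO1 was measured at a far lower signal, and that contrast had no part in choosing it. The signal was 732, 981 and 874 in BES with IFNT. It was 1087, 1070 and 1150 in BES with PBS. Every IFNT array again lay below every PBS array, which 21.1% of the 11309 probes tested in BES also showed.

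The level averaged −1.79 ± 0.16 in BES with IFNT and −1.41 ± 0.14 in BES with PBS (SD, n = 3 each). The difference of −0.38 ± 0.10 (SE, 76.6% of the PBS level, lower on 3 of 3 IFNT arrays) had an unadjusted p of 0.00939 in limma and an adjusted p of 0.0988 over all probes, so it did not pass the threshold of 0.05, which 3.66% of the probes passed (1.37% as falls). The call depended on the fit: with the spread estimated from all 14 arrays, the limma adjusted p was 0.0378, and with array row as a covariate it was 0.495. PBS arrays 1 and 2 were the BES arrays in row 1. The granulocyte difference minus the BES difference was −1.02 ± 0.12 on the log2 scale (SE). That comparison is given without a p, because the granulocyte contrast chose the gene.

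Between the cell types, GRO1 ranked in the order granulocytes with PBS, granulocytes with IFNT, BES with PBS and BES with IFNT. No neighbours in this order overlapped. Every IFNT array below every PBS array was also seen for 26.8% of the probes tested in granulocytes and 21.1% in BES. The granulocyte contrast chose the gene. With IFNT the level was 58.7-fold higher in granulocytes than in BES, and with PBS it was 119-fold higher. These folds depend on the scaling by the 75th percentile, and cell type and slide cannot be told apart in them. Before scaling, the signals with IFNT were 19793 to 21373 in granulocytes and 732 to 981 in BES. With PBS they were 48935 to 63955 in granulocytes and 1070 to 1150 in BES. The lowest granulocyte array with IFNT exceeded the highest BES array with IFNT by 5.71 on the log2 scale.

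**Figure D1:**
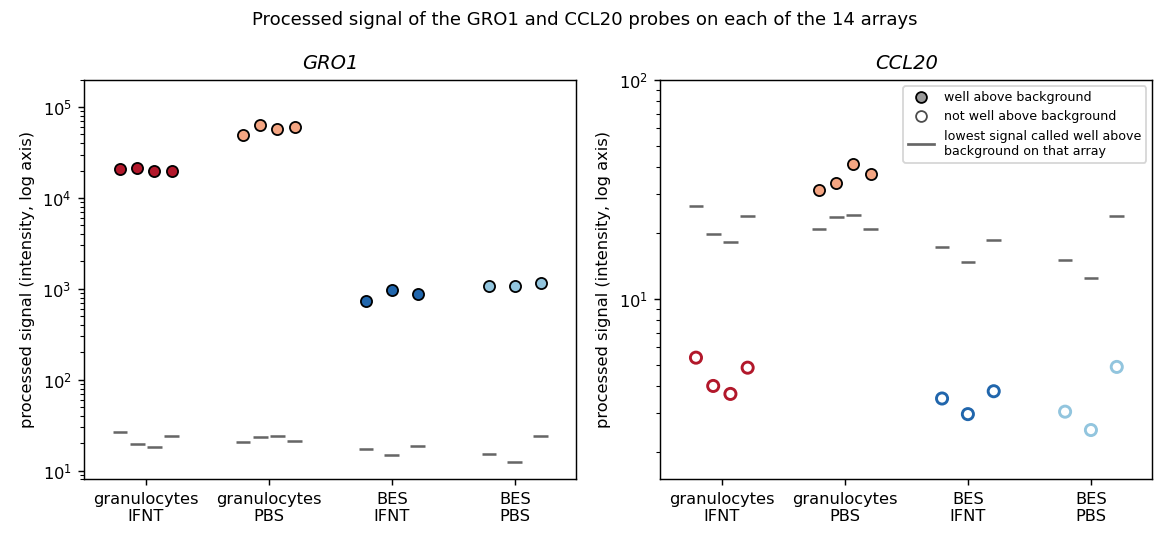
Processed signal (intensity, log axis) of the GRO1 probe (left) and the CCL20 probe (right) on each of the 14 arrays, by group. Filled points were well above background, open points were not, and the grey bars mark the lowest signal called well above background on that array. GRO1 lies at 19793 to 21373 in granulocytes with IFNT and at 48935 to 63955 with PBS, while CCL20 is filled only on the 4 arrays of granulocytes with PBS.

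CCL20 was detected in 1 of the 4 groups, granulocytes with PBS, and only just. In granulocytes with IFNT the software substituted processed signals of 5.39, 4.00, 3.68 and 4.85 for a spot at background. In granulocytes with PBS the signal was 31.2, 33.8, 41.4 and 37.1, and the lowest signal called well above background on those arrays was 20.8 to 24.1. CCL20 was well above background on 0 of 4 IFNT arrays and on 4 of 4 PBS arrays, a pattern seen for 9 of the 10379 probes tested in granulocytes. The reverse pattern was seen for 36. CCL20 was chosen on these calls, so its rare pattern is a description.

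The raw pixels show how small the measured quantity was. The mean pixel signal of the CCL20 spot was 64.6 to 69.3 in granulocytes with IFNT, where the background subtracted was 67.6 to 70.6. With PBS the mean pixel signal was 98.5 to 116 over a background of 67.2 to 75.3. The pixel ranges of the groups did not overlap, whereas the background ranges did.

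Because no IFNT array measured CCL20, its fold difference has only a bound. Against the lowest signal called well above background on each IFNT array, CCL20 was at least 1.55-fold lower in granulocytes with IFNT than with PBS. The fitted difference was −2.93 ± 0.17 (SE) on the log2 scale with the substituted values, whose group means were −8.09 ± 0.28 with IFNT and −5.16 ± 0.27 with PBS (SD, n = 4 each). It was −0.67 ± 0.11 when the background was modelled by normexp with an offset of 50, so its size depends on how spots at background are treated. Its direction and the lack of overlap rest on the same contrast that chose the gene.

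**Figure D2:**
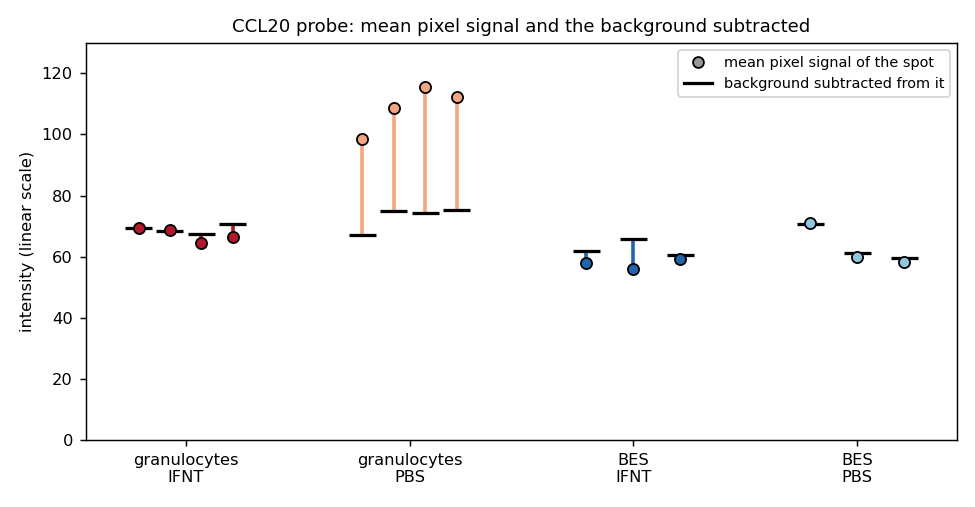
Mean pixel signal of the CCL20 spot (points, linear intensity) and the background subtracted from it (black bars) on each array, by group. The points stand clear of the bars only in granulocytes with PBS, at 98.5 to 116; in granulocytes with IFNT they lie at 64.6 to 69.3, next to their background.

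In BES, CCL20 was well above background on no array. The substituted signals were 3.51, 2.98 and 3.79 with IFNT and 3.06, 2.52 and 4.89 with PBS. No difference was tested there and no fold is given, and the data do not show whether BES lacked the transcript or held less than the array could detect. With PBS, CCL20 was at least 4.95-fold higher in granulocytes than in BES on the scaled level, by the same kind of bound. This bound depends on the scaling by the 75th percentile, and cell type and slide cannot be told apart in it. Before scaling, the granulocyte signals with PBS were 31.2 to 41.4. The lowest signal called well above background was 12.4 to 24.0 on BES arrays with PBS. With IFNT neither cell type was above background, so the cell types could not be ordered.

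The close relatives of GRO1 were lower with IFNT in granulocytes as well. Of the 5 other ELR+ CXC genes listed, 4 had a probe (PPBP had none), and 4 of 4 fell in the limma test, where 27.4% of the 10379 probes tested in granulocytes fell. In each of these genes every IFNT array lay below every PBS array, as for 26.8% of all probes. Their median difference was −0.90, beside −0.054 over all probes tested.

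CXCL3, the gene next to GRO1, had signals of 2523, 2245, 2386 and 2227 in granulocytes with IFNT. With PBS it had 5149, 7324, 6635 and 6702. It fell by 1.37 on the log2 scale (SE 0.080, 4 of 4 IFNT arrays, limma adjusted p 2.28e-06), a difference within 1 SE of that of GRO1, with which its probe shares the 25-base stretch. CXCL2, another neutrophil attractant, had signals of 28064, 29668, 27082 and 26495 with IFNT, against 52756, 71647, 62169 and 64775 with PBS. It fell by 1.09 (SE 0.063, adjusted p 2.14e-06).

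CXCL5, which the array calls CXCL6, had signals of 5065 to 5504 in granulocytes with IFNT and of 7150 to 10280 with PBS. It fell by 0.72 (SE 0.055, limma adjusted p 1.17e-05). CXCL8, interleukin 8, had signals of 141233 to 165868 with IFNT and 212241 to 282360 with PBS and fell by 0.68 (SE 0.074, adjusted p 1.21e-04). GRO1, CXCL3 and CXCL2 thus had differences beyond −1 on the log2 scale, and CXCL5 and CXCL8 had smaller ones. On the PBS arrays, array 4 gave the lowest level of GRO1 (5.35), CXCL2 (5.44) and CXCL3 (2.17). Array 2 gave the lowest level of CXCL5 (2.74) and CXCL8 (7.54).

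In BES, 0 of the same 4 genes passed the limma test, where 3.66% of the 11309 probes tested did. An unadjusted p under 0.05 was reached by 1 of the 4 and by 25.4% of all probes tested. With so low a share called, the lack of a call among 4 genes is not a result about the family. The differences were −0.12 (adjusted p 0.452) for CXCL2, −0.16 (0.177) for CXCL3, −0.05 (0.605) for CXCL5 and 0.17 (0.420) for CXCL8. The granulocyte response was lower than the BES response in all 4 by the limma interaction term, which 26.5% of 12046 probes passed. The difference between the responses was −0.97 ± 0.11 for CXCL2 (adjusted p 4.39e-05), −1.21 ± 0.11 for CXCL3 (6.53e-06), −0.67 ± 0.081 for CXCL5 (6.72e-05) and −0.84 ± 0.15 for CXCL8 (0.00107).

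The relatives also differed in how far granulocytes exceeded BES. With PBS the level in granulocytes was 614-fold that in BES for CXCL8 and 387-fold for CXCL2, but 5.38-fold for CXCL3 and 1.71-fold for CXCL5. GRO1 lay between these pairs, and all 5 carry the confounding of cell type with slide. With IFNT the ratios were 342-fold for CXCL8, 197-fold for CXCL2, 2.32-fold for CXCL3 and 1.08-fold for CXCL5. These ratios depend on the scaling by the 75th percentile, 1009 to 1491 on granulocyte arrays and 2564 to 3173 on BES arrays. Before scaling, CXCL5 was lower in granulocytes, at 7150 to 10280 with PBS against 11375 to 12670 in BES. With IFNT it was 5065 to 5504 against 11531 to 12066. CXCL3 signals overlapped with IFNT (2227 to 2523 against 2306 to 2564) but not with PBS (5149 to 7324 against 2536 to 2816).

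**Figure D3:**
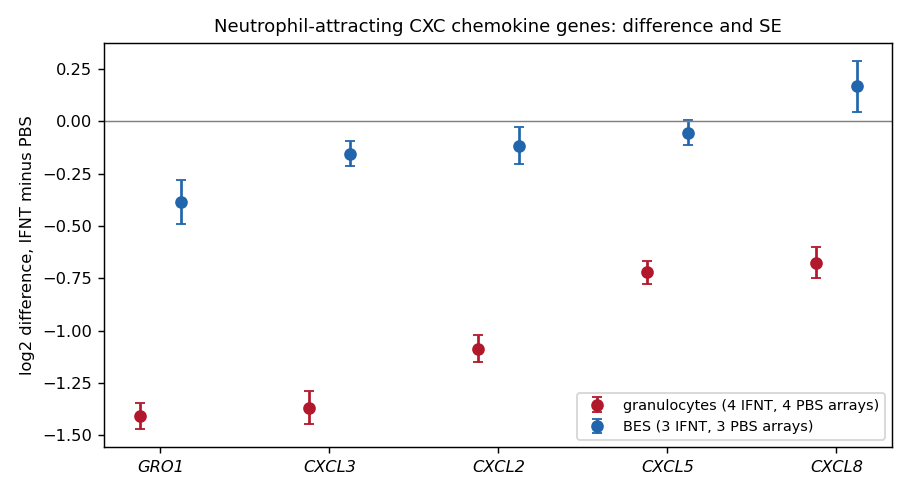
Difference in level (log2, IFNT minus PBS) of GRO1 and 4 related CXC chemokine genes in granulocytes (red, 4 IFNT and 4 PBS arrays) and in BES (blue, 3 IFNT and 3 PBS arrays), with bars of 1 SE. Granulocyte values run from −1.41 for GRO1 to −0.68 for CXCL8, and BES values from −0.38 for GRO1 to 0.17 for CXCL8.

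Of the receptors, CXCR1 by its RefSeq name was measured in granulocytes, and CXCR2 and CCR6 had no probe of that name. The array calls the CXCR1 probe IL8RB, and which receptor it measures was not tested. CXCR1 fell by 0.23 on the log2 scale in granulocytes (SE 0.046, limma adjusted p 0.00344; 0.192 in the fit over all 14 arrays). It was well above background on no BES array.

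Other chemokines moved both ways in granulocytes. Of 30 listed, 16 had a probe and 12 were tested in granulocytes, of which 5 rose and 3 fell, with a median of −0.019; over all probes tested, 17.2% rose and 27.4% fell. CXCL10, which attracts activated T cells, rose by 6.31 ± 0.049 (limma adjusted p 3.83e-11), and the monocyte attractant CCL2 rose by 1.79 ± 0.14 (1.23e-05). CCL8, which also attracts monocytes, was well above background on 4 IFNT arrays and on no PBS array and was at least 664-fold higher with IFNT. It passed the filter through its IFNT arrays alone. Its limma adjusted p of 1.02e-08, counted above as a rise, rests on PBS values at background and not on the bound. CCL24, an eosinophil attractant, fell by 1.62 (SE 0.073, 4.61e-07).

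Of the other chemokine receptors, 8 were tested in granulocytes, of which 1 rose and 3 fell; 4 of 8 called is near the share over all probes tested (44.6%). CXCR4, which retains leukocytes in bone marrow, fell by 2.02 (SE 0.10, limma adjusted p 9.94e-07), and CCR3, a receptor of eosinophils, fell by 1.34 (SE 0.074, 1.59e-06) beside the lower eosinophil markers given above, of which it is 1. CCR1 fell by 0.61 (SE 0.18, 0.0216), but its arrays overlapped and the call was lost on leaving out any 1 of 4 arrays.

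The cytokines, receptors and adaptors that induce such chemokines moved both ways. Of 14 tested in granulocytes, 4 rose and 7 fell (78.6% called), with a median of −0.18. Over all probes tested, 17.2% rose and 27.4% fell (44.6% called), with a median of −0.054. TLR4, the receptor for bacterial lipopolysaccharide, rose by 1.85 ± 0.045 (limma adjusted p 1.22e-08). The decoy receptor IL1R2 fell by 0.59 (SE 0.053, 3.45e-05; 0.0804 in the fit over all 14 arrays), the signalling adaptor TRAF6 fell by 0.43 (SE 0.043, 6.18e-05) and the interleukin 1 antagonist IL1RN fell by 0.39 (SE 0.045, 1.61e-04).

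Of 7 tested NF-kB subunits, kinases and inhibitors, 1 rose and 3 fell in granulocytes (57.1% called, beside 44.6% of all probes tested). NFKBIB, an inhibitor that holds NF-kB in the cytoplasm, fell by 0.73 (SE 0.049, limma adjusted p 5.36e-06), and TNIP1, which restrains NF-kB signalling, fell by 0.73 (SE 0.057, 1.50e-05). CHUK, a kinase that releases NF-kB, fell by 0.20 (SE 0.044, 0.00625), and NFKBIZ, a nuclear member of the inhibitor family, rose by 0.38 ± 0.049 (3.13e-04).

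Of the proteins that act on AU-rich mRNAs, 3 were tested in granulocytes. ELAVL1, which stabilises such mRNAs, fell by 0.27 (SE 0.057, limma adjusted p 0.00529), and KHSRP, which promotes their decay, fell by 0.27 (SE 0.059, 0.00579). ZFP36, which also promotes decay, rose by 0.19 ± 0.066 (0.0443), a call lost on leaving out 7 of the 8 arrays 1 at a time.

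Other inflammatory NF-kB target genes also moved both ways: of 15 tested in granulocytes, 7 rose and 7 fell (93.3% called). Over all probes tested, 17.2% rose and 27.4% fell (44.6% called). PTGS2, the inducible cyclooxygenase, fell by 1.61 (SE 0.051, limma adjusted p 4.74e-08), and PLAUR, the urokinase receptor, fell by 0.95 (SE 0.066, 6.93e-06). BIRC3, an inhibitor of apoptosis, fell by 0.38 (SE 0.052, 4.29e-04). PTX3, a secreted pattern recognition protein, rose by 1.54 ± 0.061 (2.09e-07). IL12A, a subunit of interleukin 12, was at least 2.06-fold higher with IFNT and well above background on no PBS array. It passed the filter through its IFNT arrays alone. Its limma adjusted p of 4.99e-05, counted as a rise, rests on PBS values at background and not on the bound. Over all these lists together, interferon-stimulated genes and the members aside, 19 of 64 genes tested in granulocytes rose and 30 fell; 76.6% were called, beside 44.6% of all probes tested.

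In BES, 5 of 54 tested genes of the same lists rose and 0 fell in limma, where 2.29% of all probes tested rose and 1.37% fell. An unadjusted p under 0.05 was reached by 22 of the 54 and by 25.4% of all probes tested. ZFP36 rose by 1.13 ± 0.057 (adjusted p 1.18e-04), CXCL10 by 0.64 ± 0.12 (0.0444), CCL2 by 0.56 ± 0.061 (0.00563) and BIRC3 by 0.28 ± 0.044 (0.0286). ACKR4, a receptor that removes chemokines, was at least 1.34-fold higher with IFNT and not well above background on any PBS array. It passed the filter through its IFNT arrays alone. Its limma adjusted p of 0.00446, counted as a rise, rests on PBS values at background and not on the bound. The call of CXCL10 was lost on leaving out any 1 array other than PBS array 3 and that of BIRC3 on leaving out any 1 array, and those of CCL2, BIRC3 and ACKR4 with array row as a covariate (0.0940, 0.197 and 0.0549). CXCL10 also lost its call with quantile normalization (0.0552) and without a filter on dim probes (0.131), BIRC3 without that filter (0.0867), and ACKR4 with normexp, where its fitted difference was 0.36 (0.109) in place of 2.72. None of the listed genes called in BES was an ELR+ CXC chemokine, where 3.66% of all probes tested were called.

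**Figure D4:**
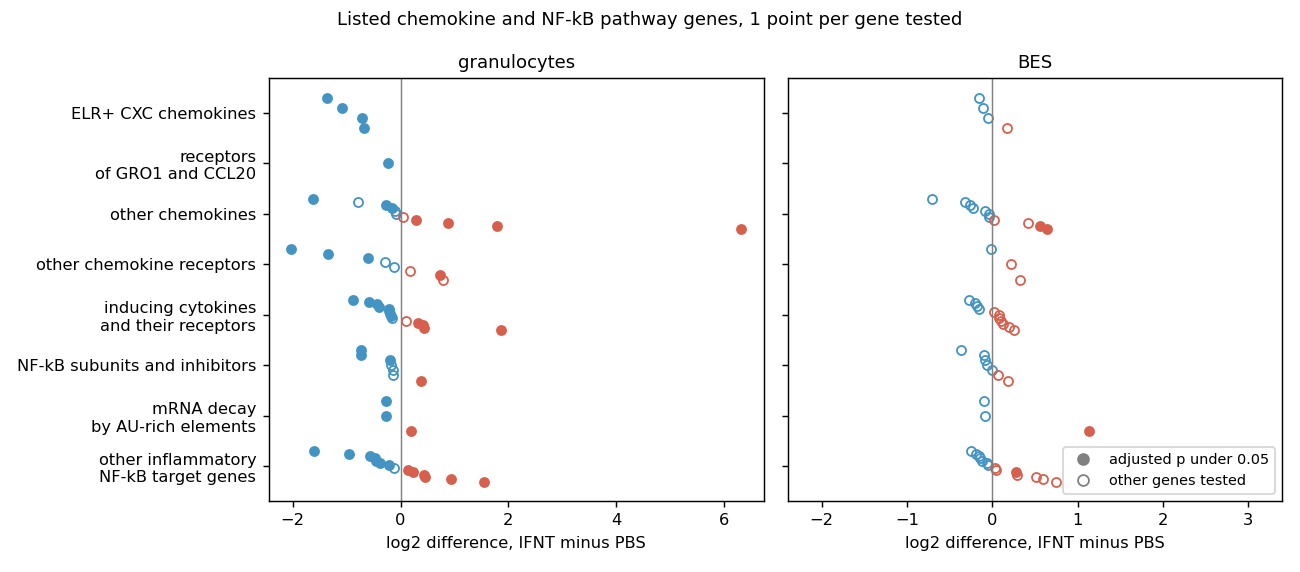
Difference in level (log2, IFNT minus PBS) of each listed gene tested in granulocytes (left) and in BES (right), by list, with CCL20, GRO1 and genes at background throughout 1 group left out. Filled points had an adjusted p under 0.05. The 4 ELR+ CXC genes lie below 0 and filled in granulocytes, and none is filled in BES, whereas most other lists hold filled points on both sides in granulocytes.

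Among the genes whose levels were most like those of GRO1 over the 14 arrays, out of 4362 named genes, were NCOA4, HES1, GNG3 and CTSF, with Pearson's r across arrays of 0.999 each. NCOA4 takes part in the breakdown of ferritin, HES1 is a transcriptional repressor, GNG3 is a G protein subunit and CTSF a lysosomal protease. These 4 averaged higher in granulocytes than in BES, and their IFNT differences in granulocytes ran from −0.92 (HES1) to −0.45 (GNG3) on the log2 scale. For CCL20 they were CXCL3 (0.986), QNG1 (0.986), SMUG1 (0.986), ALYREF (0.985) and PTGS2 (0.984), with granulocyte differences of −1.61 (PTGS2) to −0.28 (ALYREF). SMUG1 is a DNA repair glycosylase and ALYREF an mRNA export factor. These coefficients are descriptions: the arrays form separate clusters by cell type and slide, and CCL20 had a substituted value on 10 of 14 arrays.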

How the data were processed

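Gene expression was measured on 14 one-colour (Cy3) arrays. Per the file headers, the authors' scanner files hold intensity values from Agilent Feature Extraction 9.5, background-corrected; spots at background carry a substitute value. The deposited value table holds log2 values, each column equal to the log2 processed signal minus 1 constant, with column medians of −3.42 to −3.23 and no centring. Processed signals were taken to log2, minus each array's 75th percentile over 15208 non-control probes; spots marked as outliers were left out. Probes well above background on at least 3 (BES) or 4 (granulocyte) arrays were tested with limma 3.58.1 in R 4.3.3 (two-sided, Benjamini-Hochberg over all probes tested, threshold 0.05) within each cell type, and with an interaction term over all arrays. The fits were tested on simulated data. The number of arrays limits the precision.

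Members, gene lists and naming rules were chosen with earlier results of these data known. The rule named every ELR+ CXC and receptor gene tested, 4 genes a list with the smallest p in granulocytes and up to 2 called in BES, and the 5 genes most like each member; 2 genes that it named are not reported here, though counts include them. Genes were named through the bovine RefSeq table for 6176 probes, and each gene was represented by its tested probe of highest mean level. Whether equal replicate numbers mark a shared source is not stated, and the main fits have no block for them. Alternatives were another background correction, normalization, percentile, filter, prior, block, covariate and fit over all arrays, and each array left out. For the bounds, the level in a group whose arrays were all at background was raised to the lowest signal called well above background on each array. Group means and fitted differences kept the deposited values.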

Additional observations from a re-analysis of the deposited data

Results flagged for a closer look

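No array stood apart from its group by a Dixon test in 59 groups of 4 granulocyte arrays, for the members and the listed genes named; chance would mark about 1 group in 20. The IFNT responses of the cell types differed by the limma interaction term in 17 of 20 named genes that were measured in both. Most of these genes were named for the smallest p in granulocytes, so the choice favoured a difference. Over all listed genes measured in both, the responses differed in 8 (higher in granulocytes) and 19 (lower) of 49, or 55.1%, beside 26.5% of all probes. The values are the granulocyte response minus the BES response on the log2 scale. Among chemokines they were −0.97 (CXCL2), −1.21 (CXCL3), −0.67 (CXCL5), −0.84 (CXCL8), −1.36 (CCL24), 5.67 (CXCL10) and 1.23 (CCL2). Among receptors, adaptors and NF-kB regulators they were 1.77 (TLR4), −0.51 (TRAF6), −0.67 (NFKBIB), −0.65 (TNIP1), 0.19 (NFKBIZ, adjusted p 0.0435) and −0.27 (CHUK). Among the others they were −0.94 (ZFP36), −1.65 (PTGS2), −0.76 (PLAUR) and −0.65 (BIRC3). ZFP36 rose in both cell types, and BIRC3 fell in granulocytes and rose in BES. Cell type and slide cannot be told apart in these differences.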

How the results depend on the processing

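The GRO1 difference in BES was negative under each of 15 alternatives, at −0.45 to −0.30 with each array left out. It passed the threshold, at an unchanged −0.38, with the replicate block (limma adjusted p 0.0430), with an intensity trend and robust prior (0.0344) and in the fit over all 14 arrays (0.0378), and under the other 12 alternatives its adjusted p was 0.0549 to 0.495; the cause was not tested. In granulocytes, the GRO1 difference stayed within −1.45 to −1.37 and that of CCL20 within −3.03 to −2.83 with each array left out, and the CCL20 bound within 1.45 to 1.66. The CCL20 difference became −0.67 with normexp, which keeps spots at background near the offset. In BES, CCL20 had no value under any alternative with a filter.

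Listed genes that rose in granulocytes numbered 15 to 18 with each array left out, and those that fell 28 to 32. In BES, 3 to 5 rose and 0 to 1 fell with each array left out. Rises in BES numbered 3 without a filter, 3 with the replicate block, 10 with the trend and robust prior and 2 with array row as a covariate. Falls in BES numbered 1 with normexp, 1 with the trend and robust prior, 2 in the fit over all arrays and 1 with array row as a covariate. Responses differed in 6 to 10 genes (higher in granulocytes) and 18 to 20 (lower) with each array left out. Over all probes, BES falls ranged from 20 (array row) to 579 (trend and robust prior), beside 155.

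The sign turned in BES for TLR4 (−0.13 with array row, −0.034 to 0.19 with each array left out, negative without PBS array 1), NFKBIB (0.028 with array row, −0.11 to 0.00671 with each array left out, positive without PBS array 2), PTGS2 (−0.033 to 0.11 with each array left out, negative without IFNT array 3) and ALYREF (0.020 with quantile normalization); none of these was called. The difference between the responses for NFKBIZ lost its call in 11 of its alternatives. The labels do not say whether equal replicate numbers share a source. Same-numbered samples correlated over 0.1 in 3 of 4 granulocyte pairs (0.14, 0.18 and 0.20, and −0.12 for number 4) and in 0 of 3 BES pairs, and 3 of the 7 IFNT samples correlated best with the PBS sample of their number, so the numbers were not used as pairs. Beside GRO1, the block ended the calls of CXCL10 (0.0745) and BIRC3 (0.0787) in BES and of NFKBIZ between the responses (0.0591), and added IL1RN there (0.0482). Array row could not be fitted in granulocytes, where it coincides with treatment. Signal over background limits CCL20, whose IFNT level in granulocytes has only an upper bound.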
